A study of Mus musculus with 12 samples.

Results

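The clustered protocadherin genes are 58 of the 36119 genes in the expression table, chosen by their mouse symbols: 14 in the alpha cluster (Pcdha), 22 in the beta cluster (Pcdhb) and 22 in the gamma cluster (Pcdhg). They were measured by RNA sequencing of the hippocampus of C57BL/6 mice at postnatal day 70, in 4 groups of 3 libraries. EE mice received ethanol as pups and later lived in enriched cages, EC mice received ethanol and lived in standard cages, CE mice received saline and lived in enriched cages, and CC mice received saline and lived in standard cages. Every pup was injected under the skin, with 2 injections 2 hours apart on postnatal days 6 and 7. The ethanol dose was 2.5 g/kg in 0.15 M saline, and the other pups received the saline alone. From day 21 the enriched cages held 2 to 6 littermates of the same sex with running wheels, ladders, toys and extra nest material. The labels call the ethanol treatment prenatal, although the protocol places each injection after birth. The series sets alcohol exposure in early life, as a model of fetal alcohol spectrum disorder in mice, beside later enrichment. The labels do not give the sex or litter of each mouse.

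Clustered protocadherins are cell-surface adhesion proteins of the cadherin superfamily that bind the same isoform on an opposing cell membrane. In most neurons each cell switches on a small, largely random subset of the alpha, beta and gamma promoters, so that neighbouring neurons carry different sets of isoforms and a neurite can recognise branches of its own cell. The C-type isoforms are the exception, since they are expressed more uniformly and have roles of their own in neuron survival, dendrite growth and axon spacing. The promoter choice depends on DNA methylation, on the insulator protein CTCF and on cohesin, which loops a distal enhancer to the chosen promoter.

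All 58 genes lie on the forward strand of mouse chromosome 18 in 3 neighbouring clusters, given here in GRCm38 coordinates from the GENCODE annotation. The alpha cluster runs from 36930285 to 37187661, the beta cluster from 37264938 to 37524479 and the gamma cluster from 37661793 to 37841873. Each alpha gene has a first exon of its own that encodes the extracellular, membrane and first cytoplasmic part, and all 14 then share the same constant exons 2, 3 and 4, of 59, 89 and up to 2712 bases. The 22 gamma genes are built in the same way, with shared constant exons of 59, 89 and up to 1971 bases. The beta genes have 1 exon each and no shared constant region. Reads from the constant exons cannot be assigned to a single gene, so the value of an alpha or gamma gene rests on its first exon. Of the 31-base words of the transcript, a median of 36.4% in alpha genes, 88.2% in beta genes and 53.3% in gamma genes were found in no other gene. Within the first exon the C-type genes were fully distinct, at 100% unique words. Pcdhga4 had 57.6% unique words there, Pcdha7 53.9% and Pcdha4 3.76%, since 96.2% of the first exon of Pcdha4 is repeated in Gm42416, a predicted transcript that spans the alpha to gamma clusters. Gm42416 was above 0 in 2 of 12 libraries, with a mean of 0.0693, and the similar spanning model Gm37388 was above 0 in 4 libraries, with a mean of 0.288. The division between Pcdha4 and Gm42416, and among the other members with shared words, is therefore an estimate.

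Values are those of the deposited table, which are proportional to TPM (a length-adjusted abundance) within a library and are given below without a unit. The 12 columns had sums from 973187 to 1024536, and the depth of sequencing is unknown. The libraries were described with cell markers. Neuronal Snap25 lay between 1607 and 1963 in the 12 libraries. All markers of dentate granule cells (8 genes), CA1 (4 genes) and CA3 pyramidal cells (3 genes) were detected. So were all markers of the striatum (5 genes), of thalamus and habenula (5 genes) and of choroid plexus (9 genes). Detection alone therefore does not establish the region. 3 libraries stood apart in other markers. In CC2 the dentate granule cell markers (8 genes) deviated by 0.68 and the myelin markers (7 genes) by -0.49 from their 12-library means on the log2 scale. Ttr, which encodes transthyretin and is highest in choroid plexus, had values of 7503 in CE2 and 384.8 in EC1, against 20.8 to 118.4 in the other libraries. Summed markers of newborn neurons (4 genes) were higher in both ethanol groups, at 32.7 to 36.7 in EE and 33.8 to 36.5 in EC, against 25.5 to 28.3 in CE and 21.9 to 24.6 in CC. The part of these differences in the protocadherin values was not tested beyond the fits without CC2, EC1 and CE2 given below.

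All 3 clusters were expressed in every group, at low to moderate levels, and the 5 C-type genes carried a mean of 36.1% of the summed value of all members. Of the 58 members, 56 reached a 12-library mean of 1 and were tested. Pcdha8 (mean 0.551, range 0.244 to 1.099) and Pcdhb1 (mean 0.183, range 0.0519 to 0.519) were below that level and were not tested. The highest member was Pcdhgc5, a C-type gamma isoform, at 80.8, 73.3 and 77.7 in EE, 96.9, 84.1 and 81.3 in EC, 76.0, 72.2 and 78.7 in CE and 67.6, 80.7 and 92.2 in CC. Pcdhgc3, a C-type isoform that promotes dendrite branching in cortical neurons, was next at 55.1, 54.3 and 53.9 in EE, 54.9, 53.4 and 53.3 in EC, 49.3, 49.6 and 44.1 in CE and 53.4, 50.8 and 60.2 in CC. Pcdhac2, the C-type alpha isoform needed for the spacing of serotonergic axons, came after them at 27.4, 25.5 and 23.3 in EE, 27.8, 23.4 and 27.2 in EC, 25.5, 24.9 and 26.4 in CE and 22.6, 26.7 and 30.3 in CC. The ranges of these 3 genes over the 12 libraries (67.6 to 96.9, 44.1 to 60.2 and 22.6 to 30.3) did not overlap with each other. They lay above every value of the next member, Pcdhga11, at 12.5 to 18.3. Together the 3 genes held 33.6% of the summed value of all 58 members, with a range of 31.7% to 36.4%. The other C-type genes were lower. Pcdhgc4, the isoform on which the survival of many interneurons depends, had a mean of 8.47 (6.23 to 9.53), and Pcdhac1 a mean of 3.29 (2.40 to 3.94).

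**Figure D1:**
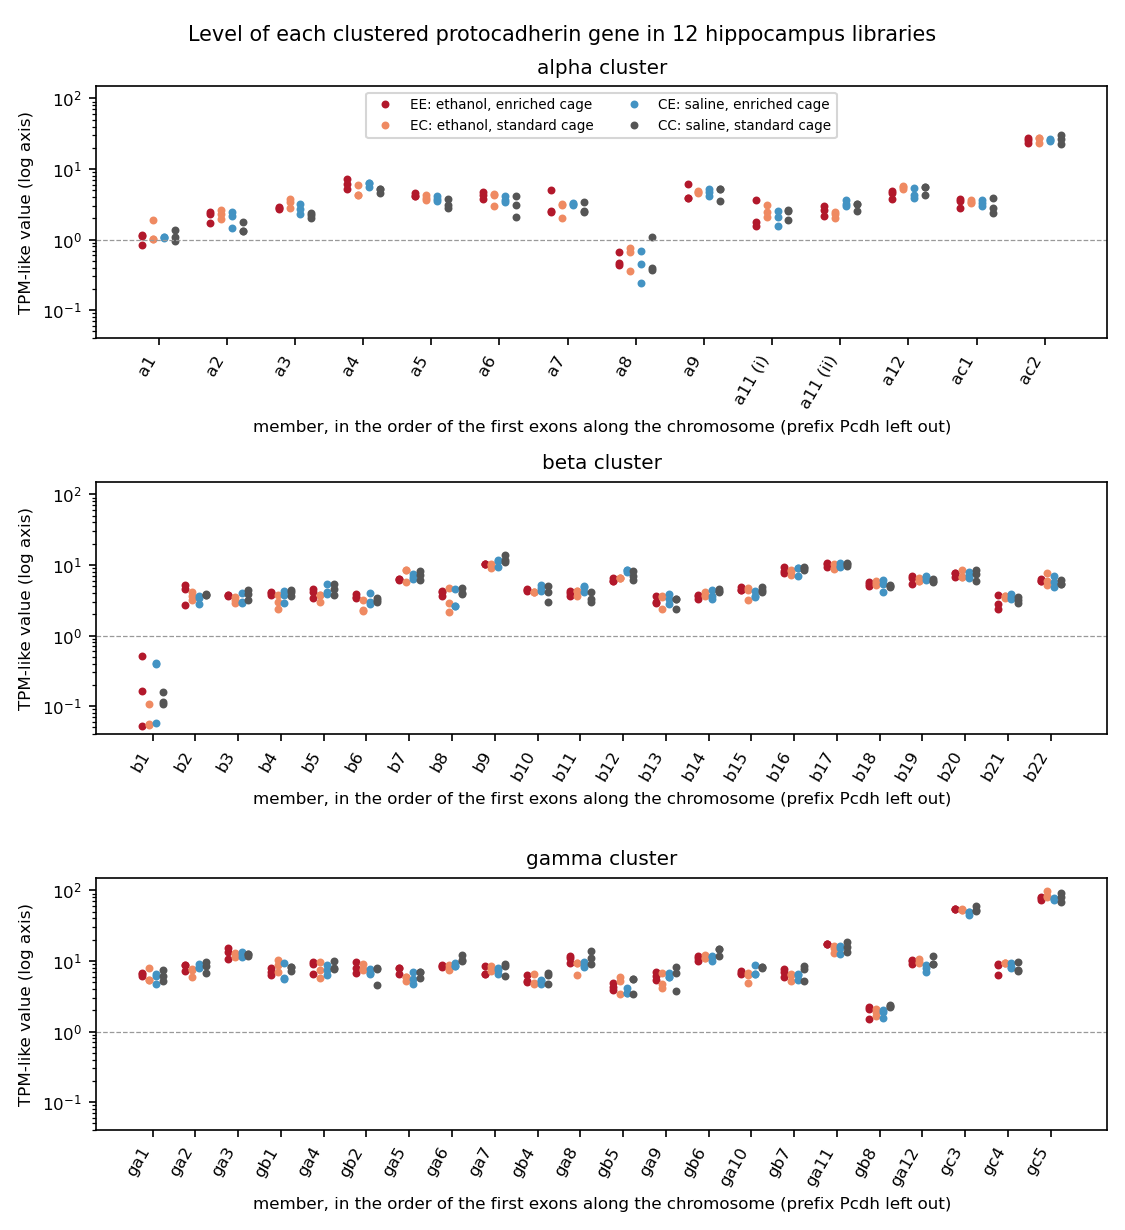
Value of each member in each of the 12 libraries on a log axis, in the order of the genes along the chromosome within the alpha, beta and gamma clusters. Points are single libraries, coloured by group, and the dashed line marks the mean of 1 needed for testing. Pcdhac2, Pcdhgc3 and Pcdhgc5, at the end of their clusters, stand above all other members, and Pcdha8 and Pcdhb1 lie below the line.

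Among the variable isoforms the mean level was lowest in the alpha and highest in the gamma-A genes. The 12 alpha genes that are not C-type averaged 3.10 (from 0.551 to 5.51), the 22 beta genes 5.14 (from 0.183 to 10.8), the 7 gamma-B genes 6.48 (from 1.99 to 11.9) and the 12 gamma-A genes 8.80 (from 5.94 to 15.7). In the alpha cluster Pcdha4 (mean 5.51) and Pcdha12 (4.87) followed Pcdhac2, and Pcdha1 (1.14) was the lowest tested. The 3 highest beta genes were Pcdhb9 (mean 10.8, range 9.03 to 14.0), Pcdhb17 (9.93, 8.91 to 10.8) and Pcdhb16 (8.40, 7.00 to 9.24), whose ranges overlapped. In the gamma cluster Pcdhga3 (12.5) and Pcdhgb6 (11.9) came after Pcdhga11 (15.7), and their ranges overlapped with its own. Pcdhgb8 (1.99), annotated as a polymorphic pseudogene with a transcript of 2796 bases, was the lowest of the gamma genes. A typical member was modest beside other hippocampal genes: the median member ranked at the 24.1 percentile of the 14947 tested genes by mean level, and Pcdhgc5 reached the 85.5 percentile. In bulk tissue, fewer expressing cells and less RNA per cell cannot be told apart.

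The gamma cluster held most of the summed value of the members. The gamma cluster summed to 295.1 ± 11.6 in EE, 295.8 ± 19.0 in EC, 274.4 ± 6.39 in CE and 303.7 ± 32.8 in CC (mean ± SD, n = 3 each), and held a mean of 61.9% of the total, between 59.4% and 64.4%. The beta cluster summed to 112.7 ± 1.07 in EE, 108.6 ± 2.63 in EC, 114.8 ± 5.65 in CE and 116.1 ± 2.49 in CC, a mean of 24.01% of the total. The alpha cluster summed to 67.3 ± 3.64 in EE, 67.5 ± 3.44 in EC, 66.5 ± 3.44 in CE and 64.3 ± 6.67 in CC, a mean of 14.1%. The groups overlapped in the alpha sums and in most pairs of the beta and gamma sums. In the beta cluster all EE libraries (111.7 to 113.8) were above all EC libraries (105.6 to 110.6), and all EC libraries were below all CC libraries (113.3 to 118.1). In the gamma cluster all EE libraries (287.6 to 308.5) were above all CE libraries (267.3 to 279.6), and so were all EC libraries (284.0 to 317.8). These sums were not tested. The widest spread was that of the gamma sum in CC, with 273.8, 298.5 and 338.8 in its 3 libraries.

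**Figure D2:**
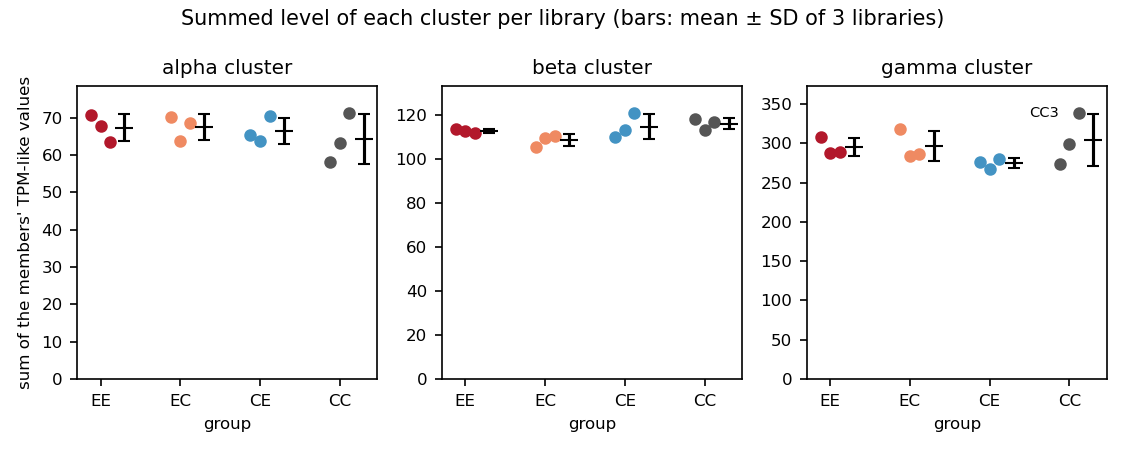
Summed value of the alpha (14 genes), beta (22 genes) and gamma (22 genes) clusters in each library, by group, on linear axes that start at 0. Points are libraries and bars show mean ± SD of 3 libraries. The CC libraries spread most in the gamma cluster, where CC3 is the highest of the 12 at 338.8.

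CC3 had the highest gamma sum, and in it all 22 gamma genes were above their own mean over the 12 libraries, by a mean of 0.22 on the log2 scale. In the same library 7 of 13 alpha and 14 of 21 beta genes were above their mean, with mean deviations of 0.01 and 0.05. EE1 followed with 17 of 22 gamma genes above their mean, and CE2, the library with the highest Ttr, had the fewest at 5 of 22. EC1, the next highest in Ttr, had 14 of 22, and CE1 and CE3, with lower Ttr, had 8 of 22 each. CC1 and CC2 were low in the alpha cluster, with 3 and 4 of 13 alpha genes above their mean and mean deviations of -0.17 and -0.10. CC3 was also low in newborn neuron markers (4 genes) and meningeal fibroblast markers (6 genes), at -0.56 and -0.63. CC2 was at -0.45 and -0.77 in these markers, with a mean gamma deviation of 0.08. CC1 was at -0.24 and -0.09, with a mean gamma deviation of -0.08. The part of the makeup of the tissue in the gamma values of CC3 was not tested. Over the 12 libraries the members varied by a median coefficient of variation of 14.4%, against 13.1% in the 12413 other tested genes within the range of the members' means. It was 17.8% in alpha, 13.1% in beta and 14.6% in gamma genes. Members with a mean from 2 to under 4 had a median of 17.2%, against 26.5% in other genes of that level. Those with a mean from 4 to under 8 had 14.4%, against 18.8%, and those with a mean from 8 to under 16 had 12.4%, against 13.8%. Pcdhb17 was the steadiest at 6.91% and Pcdha11 (ENSMUSG00000007440) the most variable of those tested at 26.5%. A second identifier, ENSMUSG00000102206, carries the same symbol Pcdha11, and the pair is kept apart by identifier here.

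**Figure D3:**
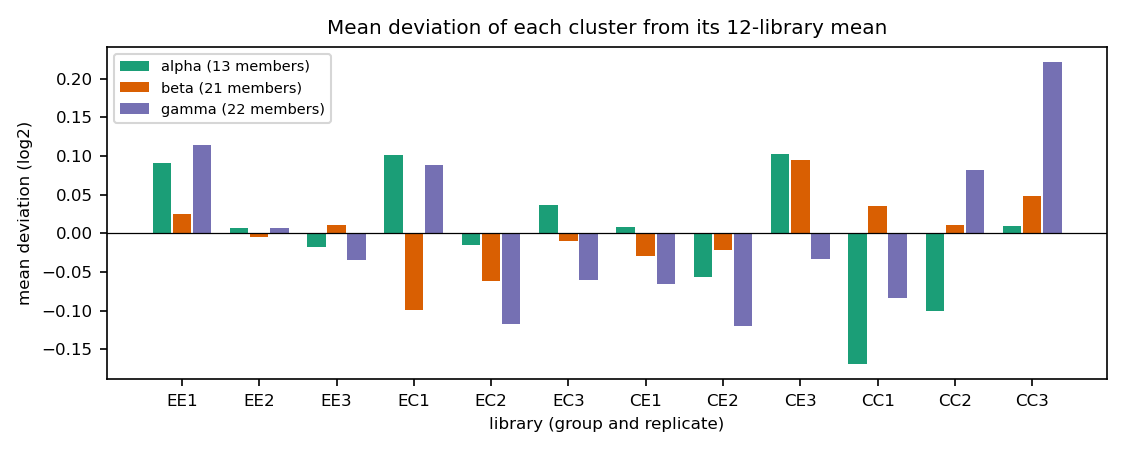
Mean deviation of the tested alpha (13), beta (21) and gamma (22) genes in each library from their 12-library mean, on the log2 scale. Each bar is 1 cluster in 1 library, with groups in the order EE, EC, CE and CC. The gamma bar of CC3 is the tallest at 0.22, and the alpha bar of CC1 the deepest at -0.17.

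No member passed the test in any of the 7 comparisons. The limma test was fitted to log2(value + 0.5) over all 14947 tested genes, and a gene was called at a Benjamini-Hochberg adjusted p under 0.05. The smallest adjusted p of any member was 0.384, for Pcdhga6 in EC against CC. In the comparisons of 2 groups the 95% confidence intervals of the tested members lay between -0.95 and 0.98 on the log2(value + 0.5) scale, which understates the fold of low members. Their median half-width was 0.36 on that scale. The values below describe the members nearest to the threshold, and none of them is a call.

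**Figure D4:**
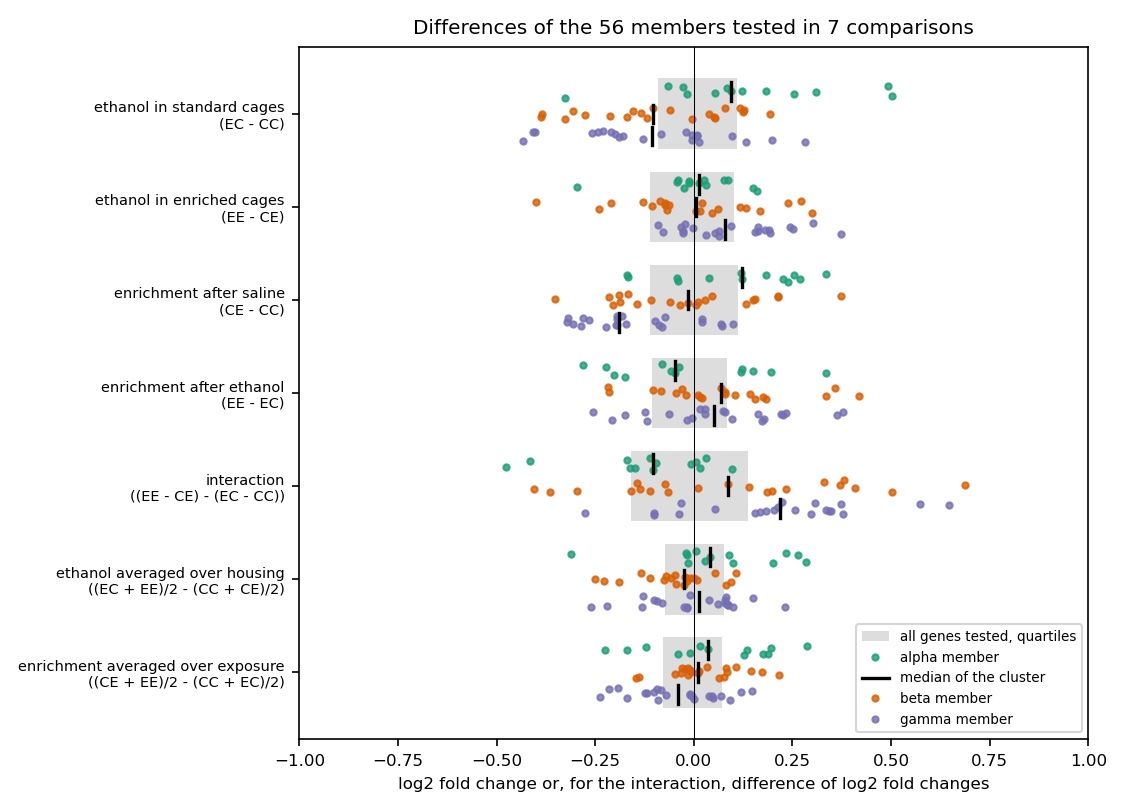
Log2 fold change of each of the 56 tested members in the 7 comparisons, by cluster, with the cluster median as a black bar and the interquartile range of all 14947 tested genes in grey. For the interaction the axis gives a difference of log2 fold changes. Points spread to both sides of 0 in every row, and gamma medians lie at -0.19 in CE against CC and at 0.22 in the interaction.

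Ethanol in standard cages was read from EC against CC. Alpha genes were mostly higher and gamma-A genes mostly lower in EC, and no member passed: 0 of 56 were called, against 0.0134% of all tested genes (2 genes). At an unadjusted p under 0.05 there were 2 members higher (3.57%, against 3.75% of all genes) and 5 lower (8.93%, against 3.64%). Of 13 tested alpha genes 9 were higher in EC, with a median log2 fold change of 0.09 (0.05 to 0.16 with 1 library left out), where 50.7% of all genes were higher. Of 12 gamma-A genes 10 were lower, with a median of -0.18. The medians were -0.10 in 21 beta and -0.11 in 22 gamma genes, and 0.00 over all genes. The gamma median was 0.03 without CC3.

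Pcdhga6, a variable gamma isoform, had the smallest p of the members, with 7.94, 7.43 and 8.71 in EC against 12.3, 10.2 and 10.02 in CC. All EC libraries were below all CC libraries (log2 fold change -0.41 ± 0.11 SE, unadjusted p = 0.00280, limma adjusted p = 0.384). Pcdhga10, another gamma-A isoform, was at 6.83, 4.93 and 6.24 in EC against 8.08, 8.29 and 8.25 in CC, also without overlap (log2 fold change -0.43 ± 0.14 SE, unadjusted p = 0.0111, limma adjusted p = 0.528). Pcdha3, an alpha isoform, was at 3.80, 3.45 and 2.84 in EC against 2.02, 2.25 and 2.38 in CC, with all EC libraries above (log2 fold change 0.50 ± 0.17 SE, unadjusted p = 0.0130, limma adjusted p = 0.536). The others at an unadjusted p under 0.05, named after their values were seen, were Pcdha2 (log2 fold change 0.49), Pcdhb9 (-0.31), Pcdhga8 (-0.40) and Pcdhgb6 (-0.26). The EC and CC libraries did not overlap in 2 members that were higher in EC (Pcdha2 and Pcdha3, 3.57%, against 6.11% of all genes) and in 7 that were lower (12.5%, against 5.99%). Of 15 sets of markers 3 also separated these groups by their sums, all higher in EC. Meningeal fibroblast markers (6 genes) summed to 115.5 to 155.6 in EC and 65.7 to 87.8 in CC, and oligodendrocyte precursor markers (4 genes) to 137.6 to 147.6 in EC and 100.02 to 121.2 in CC, beside the newborn neuron markers given above. Dentate granule cell markers (8 genes) summed to 211.4 to 265.9 in EC and 264.4 to 406.9 in CC, with overlap. The part of these markers in the protocadherin values was not tested.

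**Figure D5:**
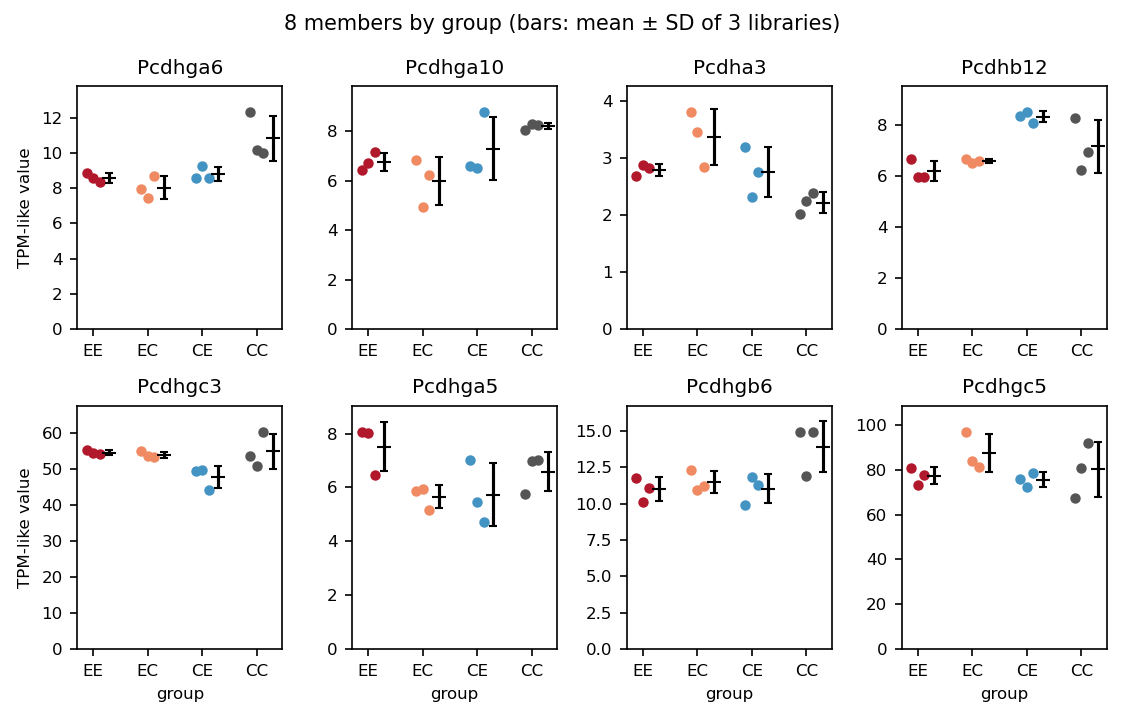
Values of 8 members in each library by group, on linear axes that start at 0. Points are libraries and bars show mean ± SD of 3 libraries. By group mean, Pcdhga6 and Pcdhgb6 are highest in CC, Pcdhb12 is highest in CE, and Pcdhgc3 is lowest in CE. None of these differences passed the adjusted threshold.

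The C-type genes did not separate EC from CC one by one, with unadjusted p between 0.213 and 0.866. Pcdhgc5 differed by a log2 fold change of 0.13 (95% interval -0.09 to 0.36), Pcdhgc4 by 0.20 (-0.13 to 0.53), Pcdhac1 by 0.18 (-0.22 to 0.59), Pcdhgc3 by -0.02 (-0.18 to 0.14) and Pcdhac2 by -0.02 (-0.26 to 0.22). As a share of the gamma cluster, however, Pcdhgc3, Pcdhgc4 and Pcdhgc5 together held 50.4% to 51.7% in the EC libraries. The share was 46.5% to 48.7% in EE, 46.9% to 48.7% in CE and 46.5% to 47.8% in CC, so that EC did not overlap with any other group. This share was chosen after its values were seen and was not tested. It joins a higher mean sum of the 3 genes in EC (150.6 ± 9.25, against 139.8 ± 5.57 in EE, 131.8 ± 2.49 in CE and 143.0 ± 17.1 in CC) with a lower mean gamma-A sum in EC (98.9 ± 4.52, against 110.6 ± 4.28 in EE, 101.0 ± 5.85 in CE and 111.9 ± 12.1 in CC). Myelin markers (7 genes) summed to 5173 to 5492 in EC, 3748 to 5581 in EE, 3133 to 3859 in CE and 3162 to 5404 in CC, and their part in the share was not tested.

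Ethanol in enriched cages was read from EE against CE. Gamma genes were mostly higher in EE, with 15 of 22 positive (48.0% of all genes) and a median log2 fold change of 0.08. Within gamma-A 7 of 12 genes were positive, with a median of 0.11. The alpha and beta medians were both 0.01, against -0.01 over all genes. None of the 56 members was called, as was none of all genes (0.00%). At an unadjusted p under 0.05 there were 3 members higher (5.36%, against 3.85% of all genes) and 1 lower (1.79%, against 3.91%). The groups did not overlap in 4 members that were higher in EE, Pcdhb15, Pcdhga11, Pcdhga12 and Pcdhgc3 (7.14%, against 7.78% of all genes). They did not overlap in 1 that was lower, Pcdhb12 (1.79%, against 7.45%). These shares were near or below the background.

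Pcdhb12, a beta isoform, was the member with the smallest p, at 6.64, 5.95 and 5.95 in EE against 8.35, 8.49 and 8.08 in CE (log2 fold change -0.40 ± 0.12 SE, unadjusted p = 0.00541, limma adjusted p = 0.576). It was at 6.64, 6.49 and 6.59 in EC and 8.27, 6.22 and 6.94 in CC. Pcdhgc3 was at 55.1, 54.3 and 53.9 in EE against 49.3, 49.6 and 44.1 in CE, with no overlap (log2 fold change 0.19 ± 0.07 SE, unadjusted p = 0.0203, limma adjusted p = 0.592). Pcdhga5 was at 8.06, 8.02 and 6.47 in EE against 7.01, 5.46 and 4.73 in CE, where the ranges overlapped (log2 fold change 0.37 ± 0.16 SE, unadjusted p = 0.0349, limma adjusted p = 0.625). The remaining one, Pcdhga12, named after its values were seen, differed by 0.30 (adjusted p = 0.625 by limma). The other C-type genes had unadjusted p between 0.619 and 0.944. Without CC2, EC1 and CE2, a choice made after seeing the data, 2 members were under the unadjusted threshold and 0 were called. Of the 15 sets of markers 3 had higher sums in EE without overlap. Astrocyte markers (5 genes) summed to 879.5 to 943.8 in EE and 787.3 to 819.2 in CE. CA3 pyramidal markers (3 genes) summed to 124.7 to 140.8 in EE and 103.5 to 123.1 in CE, beside the newborn neuron markers. Within these sets Aldh1l1 of astrocytes (mean 44.2 in EE, 47.2 in CE) and Iyd of CA3 (6.68 and 7.43) went the other way. The part of the markers in the protocadherin values was not tested.

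Enrichment after saline was read from CE against CC, which shares the CC libraries with the first comparison. Gamma genes were mostly lower in CE, with 17 of 22 negative and a median log2 fold change of -0.19, where 50.9% of all genes were positive. Within gamma-A 9 of 12 genes were negative, with a median of -0.14. Alpha genes were mostly higher, with 9 of 13 positive and a median of 0.12, and the beta median was -0.02, against 0.00 over all genes. The gamma median was -0.13 without CC3. Of 56 members 0 were called, against 0.0268% of all genes (4 genes). At an unadjusted p under 0.05 there was 1 member higher (1.79%, against 5.43% of all genes) and there were 4 lower (7.14%, against 4.60%), and 2 in all without CC3. The libraries did not overlap in 1 member that was higher in CE, Pcdha4 (1.79%, against 7.40% of all genes), and in 6 that were lower (10.7%, against 6.57%).

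Pcdhgb6, the highest of the gamma-B isoforms, was at 9.90, 11.8 and 11.3 in CE against 14.9, 11.9 and 14.9 in CC, with the highest CE library just below the lowest CC library (log2 fold change -0.32 ± 0.12 SE, unadjusted p = 0.0175, limma adjusted p = 0.419). Pcdhgc3 was at 49.3, 49.6 and 44.1 in CE against 53.4, 50.8 and 60.2 in CC (log2 fold change -0.20 ± 0.07 SE, unadjusted p = 0.0177, limma adjusted p = 0.419). Pcdhga6 was at 8.55, 9.26 and 8.59 in CE against the CC values given above (log2 fold change -0.28 ± 0.11 SE, unadjusted p = 0.0241, limma adjusted p = 0.433). All 3 were lower in each CE library than in each CC library. The others under the unadjusted threshold, named after their values were seen, were Pcdhga12 (-0.32) and Pcdhb11 (0.37). Among the other C-type genes, Pcdhgc5 differed by -0.07 (95% interval -0.30 to 0.15), Pcdhgc4 by 0.07 (-0.26 to 0.40), Pcdhac1 by 0.12 (-0.28 to 0.52) and Pcdhac2 by -0.04 (-0.28 to 0.19). Of the 15 sets of markers 4 separated CE from CC by their sums. The sum of astrocyte markers (5 genes) was lower, at 787.3 to 819.2 in CE and 823.9 to 957.7 in CC. Within this set Aldh1l1 went the other way, with a mean of 47.2 in CE and 42.7 in CC. Meningeal fibroblast markers (6 genes) were higher, at 95.8 to 168.3 in CE and 65.7 to 87.8 in CC, as were markers of the striatum (5 genes), at 65.5 to 87.4 in CE and 47.7 to 57.3 in CC, and the newborn neuron markers. Their part in these values was not tested.

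Enrichment after ethanol was read from EE against EC. The cluster medians were small, with log2 fold changes of -0.05 in alpha, 0.07 in beta and 0.05 in gamma genes, and -0.01 over all genes. Of 12 gamma-A genes 10 were higher in EE (48.1% of all genes), with a median of 0.17, while 4 of 5 C-type genes were lower, with a median of -0.05. Of 56 members 0 were called, against 0.00669% of all genes (1 gene), and at an unadjusted p under 0.05 there were 2 higher (3.57%, against 2.91% of all genes) and 0 lower (against 2.66%). The libraries did not overlap in 6 members that were higher in EE, which were Pcdhb3, Pcdhb6, Pcdhb9, Pcdhb10, Pcdhga5 and Pcdhga11 (10.7%, against 6.07% of all genes). They did not overlap in 3 that were lower, Pcdha12, Pcdhgc4 and Pcdhgc5 (5.36%, against 5.97%). The margin was often small, as in Pcdhb9, at 10.2, 10.3 and 10.2 in EE against 9.03, 10.1 and 10.2 in EC.

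Pcdhga5 was at 8.06, 8.02 and 6.47 in EE against 5.87, 5.95 and 5.16 in EC (log2 fold change 0.38 ± 0.16 SE, unadjusted p = 0.0329, limma adjusted p = 0.883). Pcdhb6, a beta isoform, was at 3.56, 3.36 and 3.82 in EE against 2.31, 3.16 and 2.25 in EC (log2 fold change 0.42 ± 0.18 SE, unadjusted p = 0.0362, limma adjusted p = 0.883). Pcdhga8 was at 11.1, 11.9 and 9.21 in EE against 9.24, 6.34 and 9.33 in EC, with overlap (log2 fold change 0.36 ± 0.18 SE, unadjusted p = 0.0639, limma adjusted p = 0.887). Pcdhgc5 was lower in every EE library than in every EC library, with the values given above and a log2 fold change of -0.17 (95% interval -0.40 to 0.05, adjusted p = 0.921 by limma). Pcdhgc4 was at 8.84, 6.23 and 9.14 in EE against 9.35, 9.26 and 9.21 in EC, a difference of -0.21 (-0.54 to 0.12). Pcdhgc3 differed by 0.02 (-0.14 to 0.17). Of the 15 sets of markers 0 separated EE from EC.

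The interaction asked whether the ethanol difference was the same in enriched and in standard cages. It is the log2 fold change of EE against CE minus that of EC against CC. Among gamma-A genes 11 of 12 were positive (48.4% of all genes), with a median of 0.32. Among gamma-B genes 5 of 7 were positive, with a median of 0.22. The whole gamma cluster had 17 of 22 positive with a median of 0.22. Genes of 1 cluster share the same libraries, here and in the other comparisons, so such counts are not independent observations. The gamma-A median was not refitted with libraries left out. The alpha median was -0.10 and the beta median 0.09, against -0.01 over all genes. Of 56 members 0 were called, against 0.0134% of all genes (2 genes), and at an unadjusted p under 0.05 there were 3 positive (5.36%, against 3.42% of all genes) and 0 negative (against 3.99%). The gamma median was 0.34 without EC1 and 0.17 without CC3, and 1 member was under the unadjusted threshold without CC3.

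The 3 members with the smallest p were all gamma-A isoforms. In Pcdhga5 the ethanol difference was 0.37 in enriched cages and -0.20 in standard cages (difference 0.57 ± 0.22 SE, unadjusted p = 0.0239, limma adjusted p = 0.620). In Pcdhga8 it was 0.24 in enriched cages and -0.40 in standard cages (difference 0.65 ± 0.25 SE, unadjusted p = 0.0242, limma adjusted p = 0.620). In Pcdhga6 it was -0.03 in enriched cages and -0.41 in standard cages (difference 0.38 ± 0.15 SE, unadjusted p = 0.0308, limma adjusted p = 0.643). For Pcdhga8 the CE libraries had 8.23, 8.82 and 9.79 and the CC libraries 8.96, 10.9 and 13.6, beside the EE and EC values above. Among the C-type genes the interaction was 0.21 in Pcdhgc3 (unadjusted p = 0.0576, adjusted p = 0.687 by limma) and between -0.28 and 0.01 in the other 4. The 95% intervals of the interaction lay between -1.11 and 1.48 over the tested members, on the log2(value + 0.5) scale.

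Averaged over housing, ethanol was read from the 6 EE and EC libraries against the 6 CE and CC libraries. The cluster medians were near 0, at 0.04 in alpha, -0.03 in beta and 0.01 in gamma genes, against 0.00 over all genes. Within gamma-A 5 of 12 genes were positive, with a median of -0.01. Of 56 members 0 were called, against 0.0134% of all genes (2 genes). At an unadjusted p under 0.05 there were 0 members higher (against 3.97% of all genes) and 5 lower (8.93%, against 4.05%). Of 56 members 26 were positive (46.4%, against 49.2% of all genes). Pcdhb12 averaged 6.18 in EE and 6.58 in EC, against 8.31 in CE and 7.15 in CC (log2 fold change -0.25 ± 0.08 SE, unadjusted p = 0.0108, limma adjusted p = 0.5003). Pcdhga6 (log2 fold change -0.22 ± 0.08 SE, unadjusted p = 0.0145, limma adjusted p = 0.514) and Pcdhga10 (log2 fold change -0.26 ± 0.10 SE, unadjusted p = 0.0250, limma adjusted p = 0.557) followed. The other 2, named after their values were seen, were Pcdhb9 (-0.19) and Pcdha11 with the identifier ENSMUSG00000102206 (-0.31). In 0 members did all 6 ethanol libraries lie above all 6 saline libraries (0.154% of all genes) or below them (0.261%).

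Averaged over exposure, enrichment was read from the EE and CE libraries against the EC and CC libraries. The medians were 0.04 in alpha, 0.01 in beta and -0.04 in gamma genes, against 0.00 over all genes. Of 56 members 0 were called, against 0.0201% of all genes (3 genes), and at an unadjusted p under 0.05 there was 1 higher (1.79%, against 4.14% of all genes) and 1 lower (1.79%, against 3.82%). Of 56 members 27 were positive (48.2%, against 50.0% of all genes). Pcdha4, the alpha isoform whose first exon is repeated in Gm42416, averaged 6.19 in EE and 6.00 in CE, against 4.82 in EC and 5.01 in CC (log2 fold change 0.29 ± 0.12 SE, unadjusted p = 0.0313, limma adjusted p = 0.610). Pcdhgb6 was lower (log2 fold change -0.19 ± 0.08 SE, unadjusted p = 0.0378, limma adjusted p = 0.616). Pcdha12 had the next smallest p (log2 fold change -0.23 ± 0.11 SE, unadjusted p = 0.0706, limma adjusted p = 0.658). In 0 members did all 6 enriched libraries lie above all 6 standard libraries (0.234% of all genes) or below them (0.140%). Of the 7 gamma-B genes 6 were negative, with a median of -0.12, while 7 of 12 gamma-A genes were positive, with a median of 0.02.

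Of 27 genes listed as possible regulators of protocadherin promoter choice, such as CTCF, cohesin and DNA methylation factors, 26 were tested. In each comparison 0 of them were called, against at most 0.0268% of all genes (4 genes). Ctcf, the insulator protein that binds the promoters and the alpha enhancer, averaged 57.9 ± 1.03 in EE, 57.2 ± 2.01 in EC, 55.9 ± 3.04 in CE and 59.8 ± 2.92 in CC, with unadjusted p between 0.138 and 0.919. The cohesin subunit Rad21 averaged 66.3 ± 0.0150 in EE, 69.7 ± 4.08 in EC, 65.3 ± 2.89 in CE and 68.6 ± 7.09 in CC. Smchd1, a chromatin protein that represses the clusters, averaged 25.003 ± 0.891 in EE, 26.3 ± 1.33 in EC, 25.4 ± 0.714 in CE and 26.3 ± 2.05 in CC. Dnmt3b, the methyltransferase that marks the promoters in the embryo, had a mean of 0.525 (0.161 to 1.14) and was not tested. The counts of this list at an unadjusted p under 0.05 ran from 0 in the interaction (against 7.41% of all genes) to 3 in EE against CE and in both averaged comparisons (11.5% of the list, against 7.76%, 8.02% and 7.96% of all genes). Zfp143, a zinc finger protein found at chromatin loop anchors, was at 9.05, 10.3 and 9.86 in EE against 5.96, 6.24 and 7.997 in EC (log2 fold change 0.51, unadjusted p = 0.00391, limma adjusted p = 0.861). Tet3 and Tet1, which oxidise methylated cytosine, were higher with ethanol averaged over housing by 0.30 and 0.35 (limma adjusted p = 0.482 and 0.5003). Setdb1, a histone H3 lysine methyltransferase, was lower in CE than in CC (log2 fold change -0.24, limma adjusted p = 0.397).

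Among 28 signalling partners of the clustered protocadherins, all tested, 0 were called in any comparison, against at most 0.0268% of all genes (4 genes). Marcks, a protein kinase C substrate that acts on the actin cytoskeleton downstream of gamma protocadherins, was closest. It was at 81.3, 75.5 and 77.3 in EC against 58.6, 55.6 and 63.1 in CC, with no overlap (log2 fold change 0.40, unadjusted p = 9.64e-05, limma adjusted p = 0.243). It was at 64.1, 64.2 and 72.6 in EE and 68.5, 71.5 and 73.7 in CE, and the interaction was -0.49 (adjusted p = 0.460). Marcks was also higher in CE than in CC (log2 fold change 0.27, limma adjusted p = 0.284), without overlap. In EE it was lower than in EC (-0.22, limma adjusted p = 0.861). Fyn, a tyrosine kinase bound by alpha protocadherins, was higher in EC than in CC by 0.26 (adjusted p = 0.538). Nefm, a neurofilament subunit, was higher in EE than in EC by 0.31 (adjusted p = 0.861). The newborn neuron markers given above also differed between EC and CC, and their part in these values was not tested.

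The non-clustered protocadherins, encoded by separate genes outside the alpha, beta and gamma clusters, served as relatives that do not share the promoter choice. Their distances from the clusters are not given here. Of 12, 11 were tested, and Pcdh12 was too low (mean 0.321). Of the 11, 0 were called in any comparison, against at most 0.0268% of all genes. They were expressed more strongly than most clustered members, with a median of 36.2 and up to 154.0 in Pcdh9. In EC against CC 10 of 11 were higher, with a median log2 fold change of 0.09, against 50.7% higher and a median of 0.00 over all genes. Pcdh9 differed by 0.19 there (adjusted p = 0.654), and Pcdh20 by 0.32 in EE against CE (adjusted p = 0.625), both by limma.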

How the data were processed

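RNA was measured in 12 hippocampus libraries, 3 per group. Per the labels' protocols, ribosomal RNA was depleted and the library kit keeps the strand. For the processing, CASAVA, kallisto, sleuth and mm10 are named in the submitters' processing notes, with no version, role or order. Which annotation was used, and how transcripts were joined into genes, is not given in the sources used here. Although the authors name the deposited values TPM, their sums differ between libraries, so they were treated as a deposited signal proportional to TPM rather than as TPM, with the same test. Read counts cannot be had from such values, so no counting interval is given.

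Symbols, exons and coordinates came from GENCODE M21 on GRCm38, and 31-base words were counted over its transcripts. On log2(value + 0.5) of the 14947 genes whose mean reached 1, limma 3.58.1 (R 4.3.3) estimated the 4 group means together, with a mean-variance trend, 8 residual degrees of freedom and 3.82 more from the prior. The 7 contrasts were two-sided, p was adjusted by Benjamini-Hochberg across every gene tested, and the threshold was 0.05. Fold changes on this scale understate those of low genes. The procedure was checked on simulated data. The p-values reflect variation among these libraries alone, since the labels do not say whether mice came from separate litters, and the labels give no batch. The members named are the C-type genes, the 3 highest of each cluster and the 3 with the smallest p in each comparison. The members and lists were chosen with earlier results of these data known. Alternatives were other pseudocounts, filters, scalings, weights and fits, a replicate block, and leaving out libraries.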

Additional observations from a re-analysis of the deposited data

How the results depend on the processing

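The number of clustered protocadherin genes called was 0 in all 7 comparisons under each of 23 alternatives, including the one without CC2, EC1 and CE2 that was chosen after seeing the data. All 483 alternative values of the members named by smallest p kept their direction, with limma adjusted p from 0.276 to 1. These members were picked by p in the same data. Between 2 groups, other filters, the variance trend, the replicate block and leaving out libraries of other groups cannot change a fold change. The kept direction is therefore no independent support. Counts at an unadjusted p under 0.05 were less stable. They ran from 3 to 10 in EC against CC (7 as reported), 2 to 5 in EE against CE (4), 1 to 6 in CE against CC (5), 0 to 5 in EE against EC (2), 1 to 7 in the interaction (3), 2 to 8 for ethanol averaged over housing (5) and 0 to 4 for enrichment averaged over exposure (2). Calls over all genes ran from 0 to 21 over the alternatives and comparisons. Counts of members without overlap, which smaller groups raise by construction, ran with 1 library left out from 9 to 18 in EC against CC (9 as reported), 5 to 14 in EE against CE (5), 7 to 20 in CE against CC (7) and 9 to 17 in EE against EC (9). Without CC2, EC1 and CE2 they were 22, 8, 21 and 14. Shares of all tested genes at an unadjusted p under 0.05, or without overlap, were not computed under the alternatives. The counts of members under alternatives, here and in the comparisons above, therefore have no background beside them and cannot be read as a result. Of the cluster medians, that of gamma genes in EC against CC was 0.03 without CC3 (-0.11 as reported), and that of beta genes in EE against EC was 0.02 without EC1 (0.07). Medians near 0 also turned sign when 1 library was left out. In EE against CE the alpha median (0.01) was down to -0.03 without EE1, CE1 or CE2, and the beta median (0.01) down to -0.04 without EE1, EE2, CE1 or CE2. The alpha median in EE against EC (-0.05) was up to 0.02 without EE3 or EC1, and the beta median in CE against CC (-0.02) was 0.005 without CE1. For the averaged comparisons the gamma median of ethanol (0.01) was -0.01 without EE1, and the beta median of enrichment (0.01) was down to -0.02 without EE3, CE3 or CC2. Of 18 same-numbered pairs of libraries from different groups, 0 had deviations that correlated above 0.1 (r from -0.15 to 0.06). In 6 the same number gave the highest r of the 3 numbers. Between EE and CE this held for numbers 1, 2 and 3 (r of 0.05, 0.04 and 0.01). Deviations within a group of 3 sum to 0, so these r cannot decide whether the numbers pair libraries. With the replicate block 0 members were called in each comparison, and 6, 4, 4, 2, 4, 4 and 2 were under the unadjusted threshold in the order given above. The number of libraries, 3 a group, limits the precision.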
